A study of Mus musculus with 2 samples.

Results

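The basement membrane genes described here are Col4a1, Col4a2, Col18a1, Hspg2, Lama4, Lama5, Lamb1-1, Lamc1, Nid1 and Nid2, a set drawn up as the basement membrane of the vascular type. Every non-control probe whose gene name on the array is one of these symbols was taken, which gave 16 probes for 10 genes out of 41174 probes for 27731 genes. Lamb1-1 is the array's older name for Lamb1. The cells came from dorsal skin of mice with a knock-in allele, Lgr5-EGFP-ires-CreERT2 for one line and Lgr6-EGFP-ires-CreERT2 for the other, in which the Lgr5 or the Lgr6 promoter drives green fluorescent protein, and the fraction with high fluorescence was sorted from each line. Each sort pooled 3 mice, so that no value belongs to a single animal, and the labels give no age, sex or hair cycle stage. RNA of the Lgr5-high and the Lgr6-high fraction was hybridised together on 2 arrays with the dyes exchanged. The Lgr5-high RNA carried Cy3 on array 1 and Cy5 on array 2. No population without the reporter was hybridised, and each population carries the knock-in at its own locus, so the populations differ in the modified gene as well as in the gate.

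A basement membrane is a thin sheet of extracellular matrix under epithelia and around vessels, muscle and nerve. Laminins, which are trimers of an alpha, a beta and a gamma chain, and collagen IV each form a network, and nidogens and perlecan, the heparan sulfate proteoglycan encoded by Hspg2, link these networks. Skin holds several types: the epidermal side is rich in the laminin chains Lama3 and Lamb3 with the hemidesmosomal Col17a1 and the anchoring fibril collagen Col7a1, whereas Lama4 and Lama5 with Lamb1 and Lamc1 are known from vessels. Lama5, Lamc1, collagen IV and perlecan are also made at the epidermal side and around hair follicles, so the set is not specific to vessels.

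The probes decide which end of a transcript each ratio reports, so the oligonucleotides behind the measured genes are given first, in sense orientation as in the deposited scanner tables, with positions on mouse build mm9. Col4a1, Col4a2 and Col18a1 each have 1 probe within the coding sequence. These lie in the stretch for the C-terminal globular NC1 domain of both collagen IV chains and in the stretch for endostatin, the C-terminal fragment of collagen XVIII. They are shown in full:
Col4a1, chr8:11199846-11201680, minus strand, a span that crosses an intron: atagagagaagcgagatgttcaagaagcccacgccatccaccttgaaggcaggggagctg
Col4a2, chr8:11448180-11448239, plus strand: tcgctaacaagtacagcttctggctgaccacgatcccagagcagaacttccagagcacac
Col18a1, chr10:76516065-76516124, minus strand: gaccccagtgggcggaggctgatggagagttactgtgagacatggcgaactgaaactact
The other probes of measured genes lie nearer the 3′ end of their transcripts, and their first 30 bases are:
Col4a1, chr8:11199009-11199068: ttttcgtctctggagaaactgtactatcct
Col4a2, chr8:11448840-11448899: cagtcttcctaaaatgaggcagagtctagg
Col18a1, chr10:76515820-76515879: agcattcagtcagcacccagggctctggct
Hspg2, chr4:137126392-137126451: gaacgagggatgatgataaccctgcccatc
Lama5, chr2:179911062-179911076 (the file places only part of this probe): cactttctatgaataacaagtcatttctgg
Lamc1, chr1:155066155-155066213: tgtggcccttttcaatgtgccttcacttta
For collagen IV and collagen XVIII the ratio was thus read at 2 separate places of each transcript, and for Hspg2, Lama5 and Lamc1 at 1.

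Each array held 43379 probe spots. Cy3 signals were well above background, by the scanner software's own mark, at 31.6% and 33.3% of them on arrays 1 and 2, and the dimmer Cy5 channel at 15.3% and 16.2%. No probe spot was saturated. The number of arrays limits the precision: whether each array received its own RNA pool is not stated, so both count as 1 replicate in opposite dye orientations, SDs are over 2 arrays, and no test of the populations was possible. As a check of the gates, 1 Lgr5 probe was higher in Lgr5-high cells, with a log2 ratio of -1.83 ± 0.12, and was above background for the Lgr6-high cells on 1 array. A second Lgr5 probe was not well above background for either population. Both Lgr6 probes stayed out of the comparison because neither population was above background on both arrays, so the Lgr6 transcript gave no check of its gate.

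A ratio is given as log2 of Lgr6-high over Lgr5-high, so a negative value means more signal in the Lgr5-high cells. Only probes that the scanner marked well above background for 1 and the same population on both arrays were compared, and a gene was represented by its brightest such probe. A gene was called when its mean log2 ratio was at least 1 in size, which is 2-fold, and each array alone gave 0.5 or more with the same sign. Of the 10 genes, 6 entered, namely Col4a1, Col4a2, Col18a1, Hspg2, Lama5 and Lamc1, and 4 did not, namely Lama4, Lamb1-1, Nid1 and Nid2. Of these 6, 4 were called higher in Lgr5-high cells, against 4.75% of the 6208 genes tested, and 0 were called higher in Lgr6-high cells, against 7.26% of all genes. No p stands behind these counts, because the rule is one of size. The genes were chosen with earlier results of these data known, so the shares over all genes are no independent contrast. With the stricter condition that both populations were above background on both arrays, the same 6 genes entered and 4 were called higher in Lgr5-high cells, against 4.9% of 4509 genes, and 0 higher in Lgr6-high cells, against 7.65%. The 6 genes lay below 0 on both arrays, as did 38.6% of all genes tested. Their median log2 ratio was -1.33, and that of all genes tested was -0.05.

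**Figure D1:**
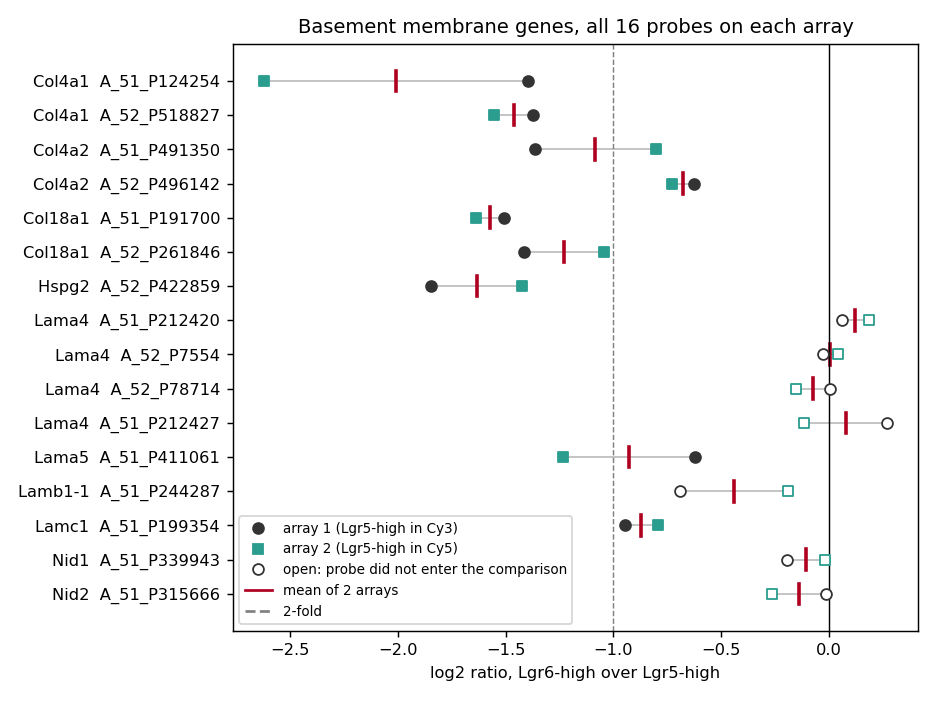
Log2 ratio of Lgr6-high over Lgr5-high for each of the 16 probes (rows), on array 1 (circles) and array 2 (squares), with the mean of both arrays as a red tick; open symbols are the 7 probes that did not enter the comparison. The 9 filled probes lie below 0 on both arrays, and the open probes of Lama4, Nid1 and Nid2 lie near 0.

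Collagen IV is the network-forming collagen of basement membranes, and Col4a1 and Col4a2 encode the chains of its most widespread trimer. Both chains were called higher in Lgr5-high cells. In the Lgr5-high cells the 3′ probe of Col4a1 gave a mean spot signal of 727 in Cy3 and 364 in Cy5, and in the Lgr6-high cells 175 in Cy3 and 163 in Cy5. Negative controls had median signals of 92.8 and 91.9 in Cy3 and of 153 and 152 in Cy5, so the Lgr6-high signal in Cy5, on array 1, was hardly above that of the controls. The scanner marked the Lgr6-high cells above background for this probe on array 2 only, where they carried Cy3. The log2 ratio of this probe was -1.40 on array 1 and -2.62 on array 2, a mean of -2.01 ± 0.87 or 4.02-fold more in Lgr5-high cells, rank 31 of all genes from the Lgr5-high side. The size of that ratio is loosely fixed, since its SD is the largest among the 6 genes.

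The NC1 probe of Col4a1 was above background for both populations on both arrays. Its Lgr5-high signal was 740 in Cy3 and 276 in Cy5, and its Lgr6-high signal was 231 and 169. Its log2 ratio was -1.37 on array 1 and -1.55 on array 2, which is 2.76-fold with a narrower SD of 0.13. Both places of the transcript thus gave a ratio past 2-fold, and the fold of 4.02 rests on the probe that was dim in Lgr6-high cells.

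Col4a2 encodes the partner chain in that trimer. Its 3′ probe gave 673 in Cy3 and 254 in Cy5 for Lgr5-high cells, and 362 and 170 for Lgr6-high cells. The log2 ratio was -1.37 on array 1 and -0.80 on array 2, a mean of -1.08 ± 0.40 or 2.12-fold, which lies close to the 2-fold minimum. Its NC1 probe was dimmer, with 254 and 186 for Lgr5-high cells against 155 and 161 for Lgr6-high cells, and it was above background for the Lgr6-high cells on array 2 only. This second probe gave -0.63 and -0.73, a mean of -0.68 ± 0.07 or 1.60-fold, and would not have been called alone. The mean of both probes was -0.88, so the Col4a2 call depends on which probe stands for the gene. Without array 1 the ratio of the 3′ probe was -0.80 and the call was lost.

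Col4a1 and Col4a2 are a head-to-head gene pair. In RefSeq on build GRCm38.p6, a build other than that of the probe positions, the start site of Col4a1 lies at position 11312826 of chromosome 8 on the minus strand and that of Col4a2 at 11312805 on the plus strand, 22 bases counting both. Their promoter windows, from 250 bases before to 50 bases after each start, share 78 bases. The run chr8:11312761-11312790 of the plus strand lies in the Col4a2 window and holds the letters CCAAT in capitals, which begin outside the Col4a1 window. The run chr8:11312800-11312829, which spans both start sites, lies in the shared bases and holds the letters GGGCGG in capitals:
Col4a2, CCAAT: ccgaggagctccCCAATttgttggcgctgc
Col4a1 and Col4a2, GGGCGG: tcggcagtgcgcGGGCGGcgtctccaaggg
The data bear on this region only in that both neighbours gave a negative ratio with each of their 4 probes.

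Promoter windows were found for 7 of the 10 genes, namely Col4a1, Col4a2, Col18a1, Hspg2, Lama5, Lamb1 and Nid1. GGGCGG, searched on both strands, occurred in a window of each of these 7 genes and in 35.7% of all 32851 windows. CCAAT, also on both strands, occurred for 5 of them, the exceptions being Hspg2 and Lama5, and in 37.4% of all windows. TATAAA occurred for 0 of them and in 13.6% of all windows. The windows of the 7 genes held 59.7% to 74.0% G and C, against a median of 52.7% over all windows. These are letter matches in short windows that are richer in G and C than most, and Lamb1 and Nid1, which were not measurable here, hold both letter runs too.

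Col18a1 encodes collagen XVIII, a proteoglycan of basement membranes that carries heparan sulfate chains. It gave the brightest signals of the set, which lay farthest above those of the negative controls. Its 3′ probe read 7997 in Cy3 and 1726 in Cy5 for Lgr5-high cells, against 3519 and 558 for Lgr6-high cells. The log2 ratio was -1.51 on array 1 and -1.64 on array 2, a mean of -1.57 ± 0.09 or 2.97-fold. The endostatin probe read 1756 and 433 for Lgr5-high cells, against 814 and 235 for Lgr6-high cells, and gave -1.41 and -1.04, which is 2.34-fold. Both Col18a1 probes were above background for both populations on both arrays and past 2-fold in the mean.

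Hspg2 encodes perlecan, which carries heparan sulfate chains that bind growth factors. Its only probe read 2024 in Cy3 and 412 in Cy5 for Lgr5-high cells, against 560 and 214 for Lgr6-high cells. The log2 ratio was -1.84 on array 1 and -1.42 on array 2, a mean of -1.63 ± 0.30 or 3.10-fold. In each dye the Lgr5-high signal was the higher one, and the ranks of Hspg2 and Col18a1, 75 and 89 from the Lgr5-high side, were close to each other.

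Among the laminin chains, Lama5 and Lamc1 were measured and neither was called. Lama5, the alpha chain of the laminin that pairs with Lamb1 and Lamc1 in most basement membranes, read 537 and 303 for Lgr5-high cells and 356 and 192 for Lgr6-high cells in Cy3 and Cy5. Its log2 ratio was -0.62 on array 1 and -1.23 on array 2, a mean of -0.93 ± 0.43 or 1.90-fold. Lamc1, the gamma chain shared by most laminins, read 897 and 325 for Lgr5-high cells and 613 and 214 for Lgr6-high cells, with -0.95 and -0.79, a mean of -0.87 ± 0.11 or 1.83-fold. Both chains lay below 0 on each array by more than 0.5, and their mean ratios fell short of the 2-fold minimum. They ranked 370 and 430 from the Lgr5-high side, outside the 295 genes called there.

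Lamb1-1, the beta chain that completes this laminin, was near background. Its probe read 145 in Cy3 and 148 in Cy5 for Lgr5-high cells, against 76.7 and 150 for Lgr6-high cells. It was above background for the Lgr5-high cells on array 1 only, and its ratios of -0.69 and -0.19 carry no call.

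Lama4, the alpha chain found around vessels, muscle and fat, was not well above background in either population with any of its 4 probes. Of these, 2 share 29 bases of sequence and are not separate readings. Their ratios ran from -0.16 to 0.27 over both arrays. Nid1 and Nid2 encode the nidogens, which bridge laminin and collagen IV. Nid1 read 100.5 and 150 for Lgr5-high cells and 90.1 and 151 for Lgr6-high cells, and Nid2 read 91.3 and 152 against 89.8 and 150. These signals were close to those of the negative controls in each dye, so the data set no level and no fold for Lama4, Nid1 or Nid2, and they do not show that the transcripts were absent.

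The dyes differed in brightness, so each population was also compared within a dye, Lgr6-high on one array against Lgr5-high on the other. Over all genes tested, the median log2 ratio of the background-corrected Lgr6-high over Lgr5-high signal was 0.58 in Cy3 and -0.59 in Cy5, so that array 2 was the brighter one in both dyes. After each dye was centred on that median, the 9 probes that entered lay between -3.82 and -0.92 on the log2 scale. Col18a1 gave -1.79 in Cy3 and -1.37 in Cy5 with its 3′ probe, Hspg2 -2.63 and -1.49, Lama5 -1.34 and -1.37, and Lamc1 -1.21 and -0.92. Before any centring too, each of these 9 probes read higher for the Lgr5-high cells in both dyes.

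**Figure D2:**
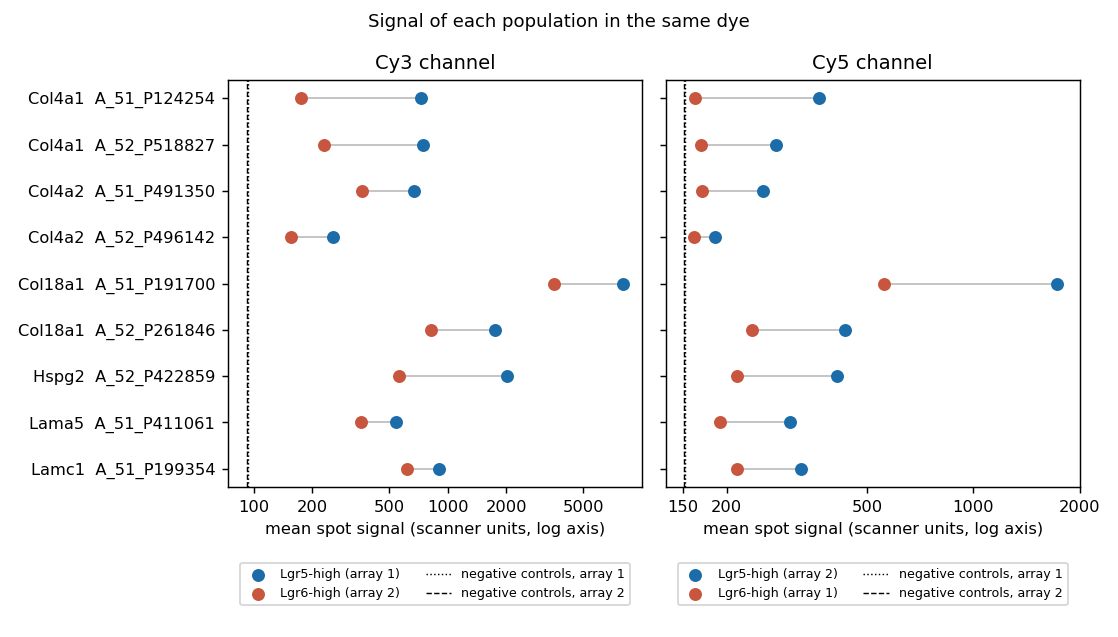
Mean spot signal in scanner units on a log axis for the 9 probes that entered the comparison, in Cy3 (left) and Cy5 (right), for Lgr5-high (blue) and Lgr6-high cells (red); the values of one panel come from different arrays. Blue lies to the right of red for every probe in both dyes, and the Lgr6-high Cy5 signals of collagen IV lie near the lines that mark the negative control medians of 153 and 152.

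The list of other basement membrane components had calls in both directions. Of 29 such genes with a probe, 12 were measured, with a median log2 ratio of 0.74. Of these 12, 1 was called higher in Lgr5-high cells, against 4.75% of all genes tested. Another 5 were called higher in Lgr6-high cells, against 7.26%. Fbln2, which encodes the matrix linker fibulin-2, was the gene called higher in Lgr5-high cells, at -1.78 ± 0.13, with the Lgr6-high cells above background on 1 array. Higher in Lgr6-high cells were the anchoring fibril collagen Col7a1 at 1.94 ± 0.67, the hemidesmosomal collagen Col17a1 at 1.67 ± 0.48 and the laminin beta chain Lamb3 at 1.16 ± 0.38. Tgfbi, a matrix protein that binds integrins, stood at 1.16 ± 0.14, and Smoc2, a calcium-binding matrix protein, at 1.05 ± 0.27. Nearest to 0 without a call were Lamb2 at 0.15 ± 0.30, Col4a4 at 0.19 ± 0.22 and Lama3 at 0.50 ± 0.05.

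Chains of collagen IV and laminin are folded, modified and secreted with the help of a shared machinery. Of 25 genes for it, 10 were measured, 1 was called higher in Lgr5-high cells and 0 higher in Lgr6-high cells. Their median was -0.58. The called gene was Serpinh1, the collagen chaperone of the endoplasmic reticulum, at -1.40 ± 0.12. P4ha1, a prolyl hydroxylase subunit, stood at -0.04, the export receptor Mia3 at 0.18 and the lysyl hydroxylase Plod3 at -0.32. Over all genes tested, 4.75% were called higher in Lgr5-high cells and 7.26% higher in Lgr6-high cells.

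Cells bind these membranes through integrins and other receptors, of which 14 of 24 were measured. Of these 14, 2 were called higher in Lgr6-high cells, against 7.26% of all genes tested, and 1 higher in Lgr5-high cells, against 4.75%. The laminin receptor chains Itga6 at 1.58 ± 0.36 and Itgb4 at 1.10 ± 0.13, which pair in hemidesmosomes, were called higher in Lgr6-high cells. Itgb5, a chain of an integrin that binds vitronectin, was called higher in Lgr5-high cells at -1.11 ± 0.01. Itgb1 at -0.02, Itga3 at 0.09 and Itgb3 at 0.21 were nearest to 0, and the median of the receptors was 0.30. Of 24 genes for making and editing heparan sulfate, the sugar that perlecan and collagen XVIII carry, 13 were measured and 1 was called in each direction. Against the same shares over all genes, 1 call each way does not set this list apart. The sulfatase Sulf2 was called higher in Lgr5-high cells, at -1.41 ± 0.76, and the sulfotransferase Hs3st1 higher in Lgr6-high cells, at 1.08 ± 0.39. These sizes are loosely fixed, because the other population was not well above background on either array. Xylt2 at -0.11, Ndst1 at 0.11 and Glce at -0.18 were nearest to 0.

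**Figure D3:**
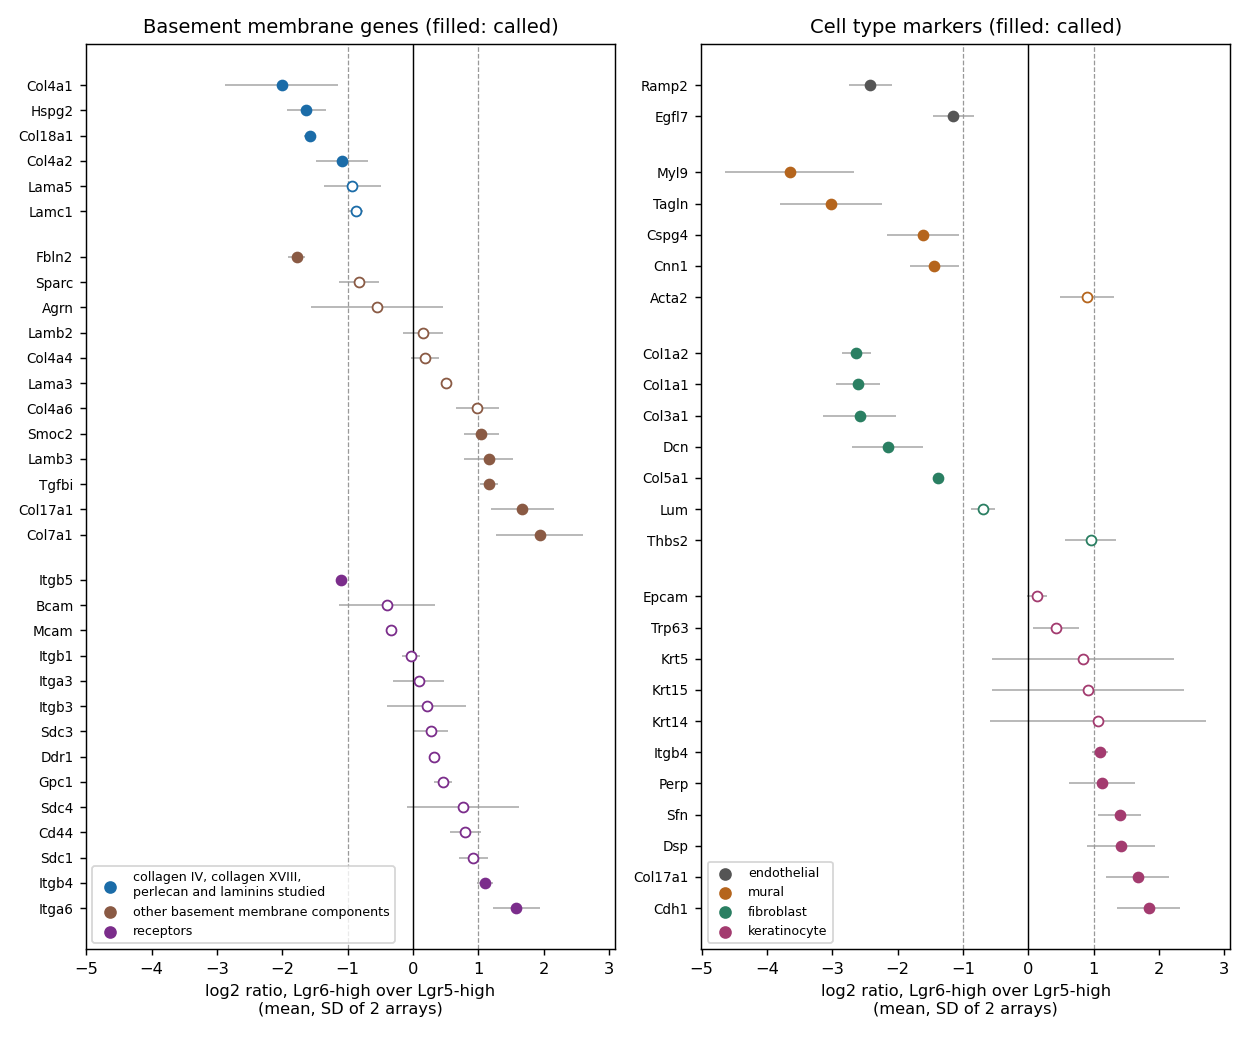
Mean log2 ratio of Lgr6-high over Lgr5-high (points) with the SD of 2 arrays (bars) for measured basement membrane genes and receptors (left) and cell type markers (right); filled points were called and dashed lines mark 2-fold. Col4a1, Hspg2, Col18a1 and Col4a2 lie on the same side as the measured endothelial markers and most measured mural and fibroblast markers. Col17a1 and Itgb4 belong to the keratinocyte list too and are drawn in both panels.

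By their mean ratios, the measured endothelial markers and most measured mural and fibroblast markers lay on the same side of 0 as the 6 basement membrane genes. The measured keratinocyte markers lay on the other side. In bulk RNA of sorted cells, fewer cells of a type and less RNA per cell cannot be told apart. Of 23 endothelial markers, 20 were never above background in either population on either array, including the defining genes Pecam1, Cdh5 and Kdr. The 2 measured endothelial markers, Ramp2 at -2.42 ± 0.33 and Egfl7 at -1.15 ± 0.31, were called higher in Lgr5-high cells, against 4.75% of all genes tested. The Lgr6-high cells were above background on 1 array for Ramp2 and on neither for Egfl7. Both genes thus entered through the Lgr5-high cells, a filter that favours a negative ratio. The summed level of the list, on the normalised intensity scale, was 1989 to 2205 in Lgr5-high cells and 1573 to 1733 in Lgr6-high cells, of which the 20 undetected genes contributed background only. The 11 dermal papilla markers, none of which entered, summed to 782 to 802 and 750 to 797. The sums of these lists cannot be set against each other, because each undetected gene adds background and the lists differ in length. Most of the endothelial list, the defining genes included, thus gave no reading, which does not show that those transcripts were absent. Whether the set is of a vascular type in these cells was not tested. The genes are therefore called by their place in the basement membrane only.

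Mural cells are the contractile cells of vessel walls, and follicles carry a sheath of like cells. Of 13 mural markers, 5 were measured and 4 of these were called higher in Lgr5-high cells, against 4.75% of all genes tested. These were Myl9 at -3.65, Tagln at -3.02, Cspg4 at -1.61 and Cnn1 at -1.44, while Acta2 stood at 0.90 without a call. For Cnn1 the Lgr6-high cells were above background on 1 array only. Another 7, including Rgs5, Pdgfrb, Myh11 and Des, were never above background in either population. The summed level was 5240 to 5559 in Lgr5-high cells and 1994 to 2261 in Lgr6-high cells. Of 16 fibroblast markers, 7 were measured and 5 were called higher in Lgr5-high cells, against 4.75% of all genes tested. These were Col1a2 at -2.63, Col1a1 at -2.61, Col3a1 at -2.58 ± 0.56, Dcn at -2.15 ± 0.54 and Col5a1 at -1.38. With the probes used, the Lgr6-high cells were above background on 1 array for Col1a1, Col1a2 and Col5a1, and on neither for Col3a1 and Dcn. All 5 thus entered through the Lgr5-high cells, a filter that favours a negative ratio. Lum at -0.69, which also entered through the Lgr5-high cells, and Thbs2 at 0.96, which entered through the Lgr6-high cells, were not called. Another 6 were never above background in either population, including Pdgfra, Fbn1 and Dpt. The summed level was 2724 to 4048 against 1179 to 1631. The part of these cell types in the ratios of Col4a1, Col4a2, Col18a1 and Hspg2 was not tested.

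Of 13 keratinocyte markers, 11 were measured, with a median of 1.10. Of these 11, 6 were called higher in Lgr6-high cells, against 7.26% of all genes tested, and 0 higher in Lgr5-high cells, against 4.75%. Col17a1 and Itgb4, counted above, are 2 of these 6. Krt14, a main keratin of basal keratinocytes, had a ratio of 2.24 on array 1 and -0.10 on array 2, and Krt5 and Krt15 changed sign likewise, with 1.82 and -0.15 and with 1.95 and -0.12. Among the others Cdh1 stood at 1.84 ± 0.48 and Dsp at 1.42 ± 0.52, and Epcam, which was not called, at 0.14 ± 0.16. Both populations were above background for all 11, so both fractions held keratinocyte RNA, and its part in the ratios was not tested either. No marker of dermal papilla, adipocytes or leukocytes entered the comparison. Of the other lists, 3 of 4 measured Schwann cell markers were called higher in Lgr6-high cells, against 7.26% of all genes tested. The measured melanocyte marker Dct and the red cell marker Hba-a1 were called higher in Lgr5-high cells, against 4.75% of all genes tested.

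The sign of the 6 measured genes was the same under each of the 12 alternatives computed for the ratio, and their sizes were not. These are not 12 separate checks. The authors' value table holds the scanner's ratios, dropping the filter on dim probes left all 6 values unchanged, and leaving out an array only splits the main mean. Col4a1 ran from -3.87 to -0.95, Col4a2 from -1.96 to -0.72, Col18a1 from -2.02 to -1.40, and Hspg2 from -2.09 to -1.13. Lama5 ran from -1.54 to -0.43 and Lamc1 from -1.20 to -0.57. The scanner software's own ratios called all 6 higher in Lgr5-high cells, including Lama5 at -1.54 and Lamc1 at -1.20. With the background model fitted on all spots, outliers included, only Col18a1 was called. Without loess, each array centred on its median gave Col18a1 at -3.89 and 0.79, Hspg2 at -3.81 and 0.43, and Col4a2 at -2.87 and 0.74 on arrays 1 and 2. The arrays then had opposite signs for these genes, for Lama5 and for Lamc1, and only Col4a1, at -2.94 and -1.19, was called. The means over both dye orientations, such as -1.55 for Col18a1 and -1.69 for Hspg2, were close to those after loess.

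**Figure D4:**
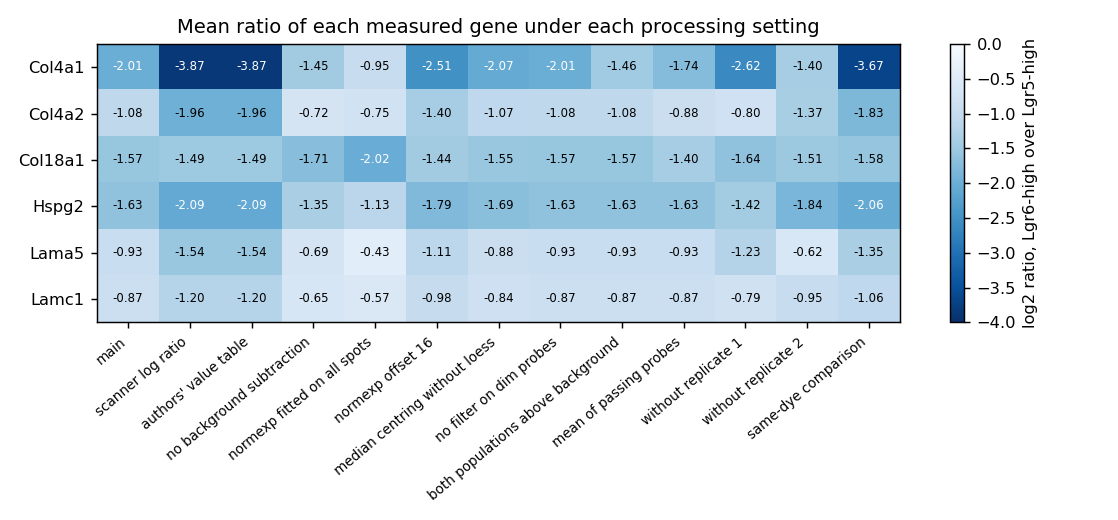
Mean log2 ratio of Lgr6-high over Lgr5-high (colour and printed value) for the 6 measured genes (rows) under the main processing and 12 alternatives (columns). All values are negative, Col18a1 keeps the narrowest range at -2.02 to -1.40, and Col4a1 the widest at -3.87 to -0.95.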

How the data were processed

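The authors deposited, per array, spot and background intensity values in both channels on a linear scale and the software's log10 ratio of Cy5 over Cy3 (Feature Extraction 10.5.1.1 per the file headers, 9.5.3 per the submitters' processing notes). The deposited value table holds the same log10 ratios with array 2 turned. In each sort, RNA was prepared with Trizol and 150 ng was amplified and labelled, per the labels' protocols. Here background was corrected with normexp (offset 50, fitted on spots without outlier marks) and ratios were normalised by loess within arrays, control spots at weight 0 (limma 3.58.1, R 4.3.3). Marked spots (139 and 204) were left out. Levels were scaled between arrays with Aquantile. Probes were named through accession (25097), symbol (6333) or synonym (1638) in a RefSeq table of GRCm38.p6; 1698 kept the file's name and 6408 had no symbol. The calling code was tested on simulated data. limma p-values were adjusted by Benjamini-Hochberg at 0.05, and a limma call also needed a 2-fold mean ratio.

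The genes and lists were chosen with earlier results of these data known. The rule for named genes took all 10 genes, and from each other list up to 5 called genes of the largest ratio and up to 3 uncalled genes nearest to 0. For cell type lists only some of these are named. A result on 1 other gene is not reported here. Promoter sequences are RefSeq's on GRCm38.p6. Alternatives covered the log ratio, background, normalisation, filter, probe choice, call rule and arrays; the same-dye comparison and the mean after median centring were added after seeing the data.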

Additional observations from a re-analysis of the deposited data

How the results depend on the processing

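The number of the 10 basement membrane genes called higher in Lgr5-high cells was 4, and it was 6 with the scanner's log ratio and with the authors' value table, 5 with an offset of 16, 3 without background subtraction and 3 with the mean of passing probes. It was 1 with normexp fitted on all spots, 1 with median centring without loess, and 4 to 4 when either array was left out. Among all genes, 295 were called higher in Lgr5-high cells and 451 higher in Lgr6-high cells. These counts were 960 and 959 with the scanner's log ratio, 960 and 959 with the authors' value table, 151 and 124 with normexp fitted on all spots, and 57 and 134 with median centring. Without background subtraction they were 204 and 212, with an offset of 16 they were 428 and 684, and with the mean of passing probes 277 and 416. With either array left out, the counts ran from 316 to 473 and from 435 to 619, over 10106 to 10290 genes in place of 6208. The limma fit called 4 of the 10 genes and 302 and 458 of all genes; it takes the dye-swapped arrays as separate replicates, so it is no test of the populations. Col4a2 lost its call without background subtraction (-0.72), with normexp fitted on all spots (-0.75), with the mean of its probes and without replicate 1, which is array 1. It also lost the call with median centring without loess (-1.07), where the arrays had opposite signs. Lama5 gained a call with the scanner's log ratio and the authors' value table (-1.54 in each), with an offset of 16 (-1.11) and without replicate 1 (-1.23). The offset pulls ratios of dim probes towards 0 by its construction; the cause of the other changes was not tested. Each ratio is taken within an array and so already pairs the populations, and the labels give no further pairing. Dim signal sets the limits: Lama4, Lamb1-1, Nid1 and Nid2 have no fold, and Col4a1 is loosely sized by its 3′ probe.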
